A study of Mus musculus with 6 samples.

Results

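Matrix proteases and their inhibitors were taken as every gene whose symbol, as the only symbol of a probe set, was Mmp, Timp, Adam, Adamts or Adamtsl followed by a number and at most the letter a or b. These were 70 genes, read by 124 probe sets, of 18193 genes that had a probe set with 1 symbol. The samples were PICs, which are PW1-expressing cells of the muscle interstitium, and satellite cells, the stem cells under the basal lamina of the fibre. Both came from minced and digested hindlimb muscle of mice of the strain C57 black 6 at 7 to 9 days of age and were parted by staining for CD34 and Sca1, and neither had a transgene or treatment in the labels. Each population had 3 arrays, 1 per biological replicate, and the labels do not say how many mice gave each replicate.

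Matrix metalloproteinases (MMPs) are zinc enzymes that cleave collagens and other matrix proteins, and tissue inhibitors of metalloproteinases (TIMPs) block their active site. ADAM proteins are membrane proteases that release the outer parts of growth factors and receptors. ADAMTS enzymes are secreted and cut proteoglycans such as versican, procollagens and other matrix proteins, while ADAMTS-like proteins lack the protease domain and bind fibrillin microfibrils. In skeletal muscle these families are known for remodelling the matrix around fibres and for the passage of muscle precursors through it.

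Of the 70 genes, 38 had a probe set above a log2 intensity of 4, the low value level (a linear intensity of 16), on at least 3 of the 6 arrays, and 32 did not. Calls required an adjusted p under 0.05 together with a difference of at least 1 on the log2 scale, which is 2-fold. Called higher in PICs were 20 of the 38 tested genes, against a background of 16.7% of all 10855 genes tested. Called higher in satellite cells were 2 of the 38, against a background of 13%, and the other 16 were not called; either direction made up 29.8% of all genes tested. In 26 of the 38 every PIC array lay above every satellite array (31.3% of all genes tested), and in 2 every satellite array lay above every PIC array (33.2%). The median log2 difference was 1.07 over the 38 genes and -0.04 over all genes tested. A gene can pass the filter through 1 population alone, so these counts describe the list and do not support it. Above the low value level on all 6 arrays were 28 of the genes, of which 14 were called with PICs above and 2 with satellite cells above. Of all genes measured in that way, PICs were called higher in 14.5% and satellite cells in 12%.

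Every array had a median intensity of 10. Satellite cell markers were higher in satellite cells in 8 of 8 genes, and the summed intensity of that list ran from 4283 to 5656 in PICs and from 33031 to 35806 in satellite cells. Interstitial markers were higher in PICs in 6 of 7 tested genes, with sums from 101013 to 103543 in PICs and from 30048 to 40038 in satellite cells. The gene not called was Peg3, which encodes PW1. It read 21709, 21661 and 20679 in PICs and 17875, 18378 and 19812 in satellite cells (0.19, adjusted p = 0.156 by limma). Transcript of Peg3 was thus high in both populations and made up a large part of the satellite sums. Satellite replicate 3 had the highest of these interstitial sums among the satellite arrays, and satellite replicate 2 the lowest. Satellite replicate 3 was also the highest satellite array for 14 of the 20 genes called higher in PICs, and satellite replicate 2 the lowest for 12 of them. The same order was not counted over all genes called higher in PICs. It therefore cannot be said to be particular to the protease list. Markers of other cell types also moved with the populations. Of 7 muscle fibre genes, Mylpf (1.85), Tnnt3 (2.84), Tnnc2 (2.31) and Myl1 (2.09) were called higher in PICs and Myh8 (-3.95) higher in satellite cells. The summed intensity of the fibre list was 6377, 7225 and 7835 in PICs and 8302, 4708 and 3606 in satellite cells, so the sums overlapped. Cspg4 (2.23), 1 of 6 smooth muscle and pericyte genes, was called higher in PICs. In that list Kcnj8 (0.47), Abcc9 (0.29), Rgs5 (-0.27), Myh11 (-0.74) and Mcam (-0.90) were not called. For Mcam every satellite array lay above every PIC array (adjusted p = 0.0121 by limma). S100b (1.90), 1 of 3 Schwann cell genes tested, was called higher in PICs. Sox10 (1.22) was called higher in PICs with the replicate block (adjusted p = 0.00779 by limma) but not in the main fit, and Mbp (-0.29) was not called. Mkx (-1.44), 1 of 2 tendon genes tested, was higher in satellite cells, and 0 of 7 endothelial genes were called by limma. The part of interstitial signal or of these other cells in the values of the protease genes was not tested. In sorted samples of this kind, fewer cells of a type and less RNA per cell cannot be told apart.

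**Figure D1:**
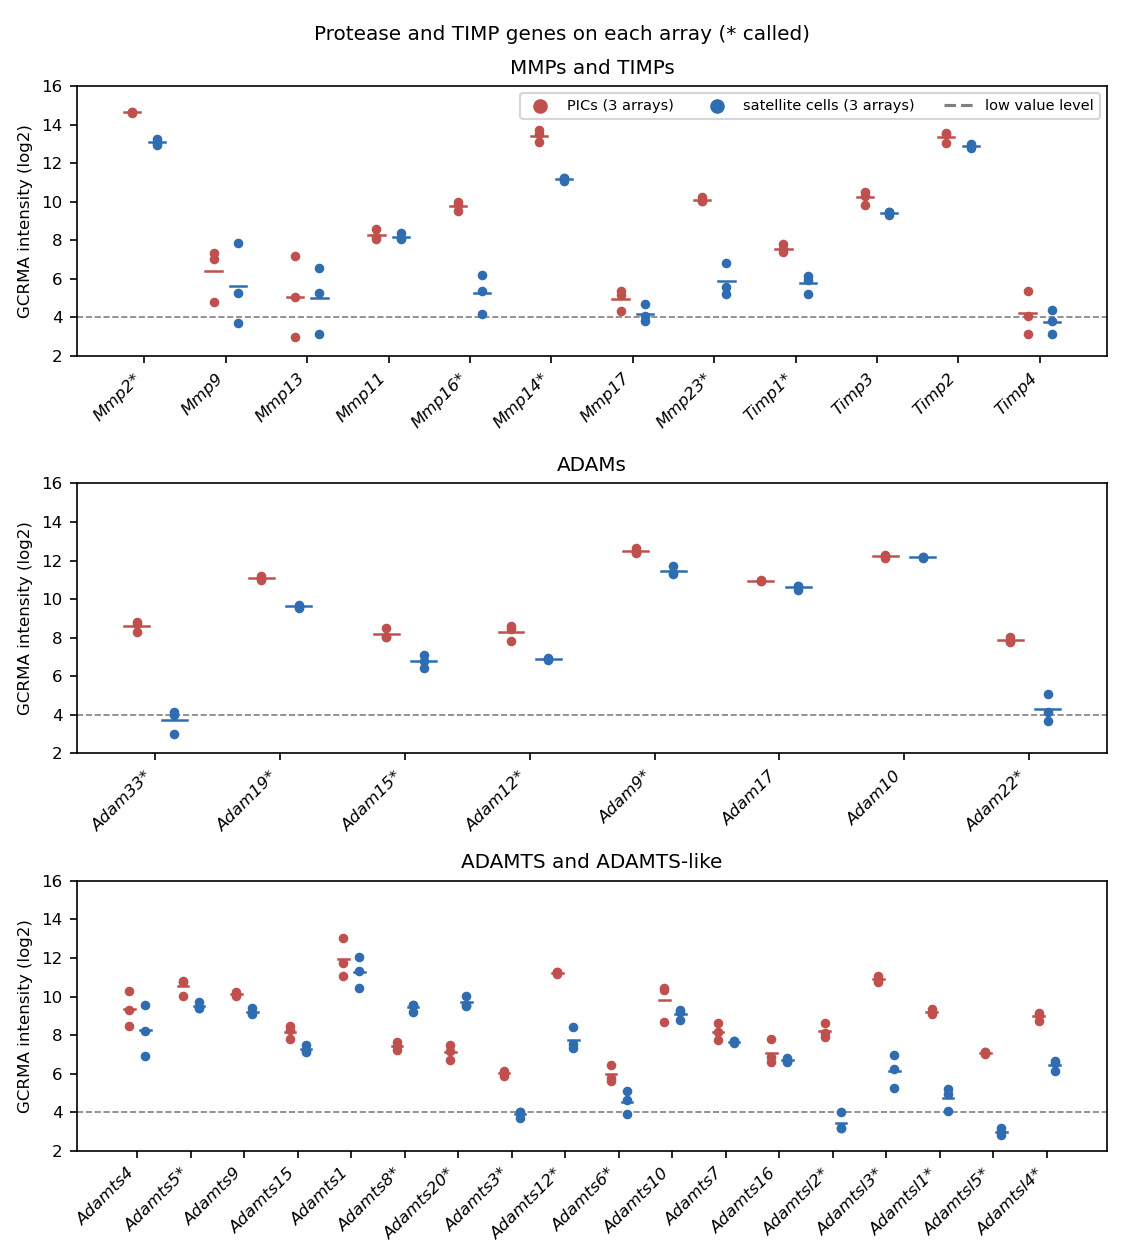
Log2 GCRMA intensity of the 38 tested protease and TIMP genes on each array, with PICs in red and satellite cells in blue; points are the 3 arrays of a population, short bars their mean, the dashed line the low value level of 4, and an asterisk marks a called gene. Adamts8 and Adamts20 are the 2 called genes whose satellite points lie above the PIC points.

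Among the MMPs, PICs had more transcript of the gelatinase gene Mmp2, of the membrane-type genes Mmp14 and Mmp16, and of Mmp23. Mmp2, whose product cleaves denatured collagen and basement membrane collagen, read 26009, 25175 and 25957 in PICs and 8599, 7906 and 9905 in satellite cells, as linear intensities. It was thus high in both populations, with every PIC array above every satellite array. The log2 means were 14.65 ± 0.03 and 13.10 ± 0.16 (SD, n = 3 each), a difference of 1.55 (95% interval 1.26 to 1.85; limma, adjusted p = 0.000148). A second Mmp2 probe set differed by 1.58.

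Mmp14 encodes MT1-MMP, the membrane protease that activates the Mmp2 proenzyme at the cell surface with the help of TIMP-2. Its intensity was 11624, 13503 and 8613 in PICs and 2163, 2370 and 2377 in satellite cells. These values did not overlap, and the log2 difference was 2.26 (95% interval 1.83 to 2.70; limma, adjusted p = 0.00016). All 3 Mmp14 probe sets were called, with differences of 2.26 to 2.75. Timp2, the inhibitor that also takes part in that activation, read 11894, 11481 and 8522 in PICs and 7142, 7468 and 8275 in satellite cells. The populations did not overlap, but PICs replicate 3 lay near satellite replicate 3. The log2 difference of 0.47 (95% interval 0.08 to 0.855; limma, adjusted p = 0.0465) was under the 2-fold threshold. Of the 5 Timp2 probe sets kept, 1 was called, at 1.47, and the others differed by 0.47 to 0.99.

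Mmp16, which encodes another membrane-type MMP able to activate the Mmp2 proenzyme, read 743, 1019 and 914 in PICs and 42, 18 and 73 in satellite cells. Its fitted log2 difference was 4.54 (95% interval 3.37 to 5.71; limma, adjusted p = 0.000413), and its 3 probe sets differed by 3.18 to 4.54. Mmp23, an unusual membrane-anchored MMP without the hemopexin domain, read 1051, 1212 and 1039 against 48, 37 and 115. The log2 difference of Mmp23 was 4.22 (95% interval 3.24 to 5.20; limma, adjusted p = 0.000278). In both genes the satellite arrays lay above the low value level and far under the PIC arrays. Mmp17, a membrane-type MMP held by a lipid anchor, read 36, 41 and 20 in PICs and 26, 14 and 17 in satellite cells, so the populations overlapped. It was not called (0.75, adjusted p = 0.104 by limma), but it was called at 1.07 without PICs replicate 3 (adjusted p = 0.0233) and at 1.34 with array weights (adjusted p = 0.00098).

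Mmp11, or stromelysin-3, lay at 288, 382 and 271 in PICs and 266, 338 and 281 in satellite cells. The ranges overlapped, and the log2 difference of 0.08 had a 95% interval of -0.34 to 0.50, which leaves out a 2-fold difference either way. Mmp9, the gelatinase of leukocytes and other cells, varied more within a population than between them. It read 164, 133 and 28 in PIC replicates 1, 2 and 3 and 236, 38 and 13 in satellite replicates 1, 2 and 3 (difference 0.80, 95% interval -2.00 to 3.59; limma, adjusted p = 0.591). Mmp13, the main interstitial collagenase of the mouse, read 34, 144 and 8 in PICs and 38, 94 and 9 in satellite cells in the same order. Both populations were highest in replicate 2 and lowest in replicate 3, and the log2 difference was 0.09 (95% interval -2.88 to 3.07). The signs of the Mmp9 and Mmp13 differences depended on single arrays: without satellite replicate 3 they were -0.16 and -0.82, and without PICs replicate 2 Mmp13 was at -0.95.

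The promoters of Mmp14 and Mmp13 are shown because Mmp14 kept its call in every alternative run while Mmp13 varied with the replicate number in both populations. They come from RefSeq (GRCm38.p6), each from 250 bases before to 50 bases after the transcription start: Mmp14 at chr14:54431348-54431647 on the plus strand and Mmp13 at chr9:7272264-7272563 on the plus strand. Capitals mark matches on either strand to GGGCGG (the GC box), CAGCTG (an E-box), TATAAA (the TATA box) and TGANTCA (the AP-1 site), and adjoining matches run together.
Mmp14: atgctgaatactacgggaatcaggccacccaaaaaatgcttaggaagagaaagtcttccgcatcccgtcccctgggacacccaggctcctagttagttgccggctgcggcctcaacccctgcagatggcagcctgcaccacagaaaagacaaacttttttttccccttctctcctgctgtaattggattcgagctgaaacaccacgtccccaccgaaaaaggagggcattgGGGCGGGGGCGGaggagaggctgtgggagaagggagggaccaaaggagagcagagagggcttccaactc
Mmp13: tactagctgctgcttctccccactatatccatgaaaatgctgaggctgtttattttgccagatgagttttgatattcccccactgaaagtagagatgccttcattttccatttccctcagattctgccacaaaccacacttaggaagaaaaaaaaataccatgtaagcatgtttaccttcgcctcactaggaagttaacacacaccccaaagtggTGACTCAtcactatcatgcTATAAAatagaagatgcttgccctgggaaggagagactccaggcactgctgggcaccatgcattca
The Mmp14 window held GC boxes, 2 in all, and none of the other letters searched. The Mmp13 window held a TATA match 16 bases and an AP-1 match 35 bases before the start, counted to the first base of the match. Of 32851 promoters in the table, 35.7% held GGGCGG, 16.3% CAGCTG, 13.6% TATAAA and 7.81% TGANTCA. An entry was found for 22 of the 38 tested genes, of which 18 held GGGCGG, 8 CAGCTG, 3 TATAAA and 2 TGANTCA (Mmp13 and Adam19). A gene was counted if any of its promoters held the letters, while the percentages are of single promoters. The counts and percentages are thus not like measures. A match describes letters in the window and is not evidence of binding.

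Of the TIMP genes, Timp1 was called and Timp2, Timp3 and Timp4 were not. Timp1, an inducible secreted inhibitor, read 166, 185 and 224 in PICs and 61, 37 and 71 in satellite cells. PICs were higher on every array, by 1.81 on the log2 scale (95% interval 1.17 to 2.44; limma, adjusted p = 0.00145). Timp3, the inhibitor bound to the matrix that also blocks ADAM17 and aggrecanases, read 1450, 1279 and 916 against 704, 628 and 715. Its arrays did not overlap, and the difference of 0.81 (95% interval 0.35 to 1.26; limma, adjusted p = 0.0109) stayed under the 2-fold threshold. Without both arrays numbered 3, Timp3 was called at 1.03 (adjusted p = 0.00511 by limma). Another Timp3 probe set read 1729, 1586 and 533 in PICs and 847, 716 and 484 in satellite cells, so PICs replicate 3 fell within the satellite range there. Timp4 lay around the low value level, at 42, 17 and 9 in PICs and 21, 14 and 9 in satellite cells, with a difference of 0.43 (95% interval -0.99 to 1.85) that changed sign without PICs replicate 1 (-0.16).

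**Figure D2:**
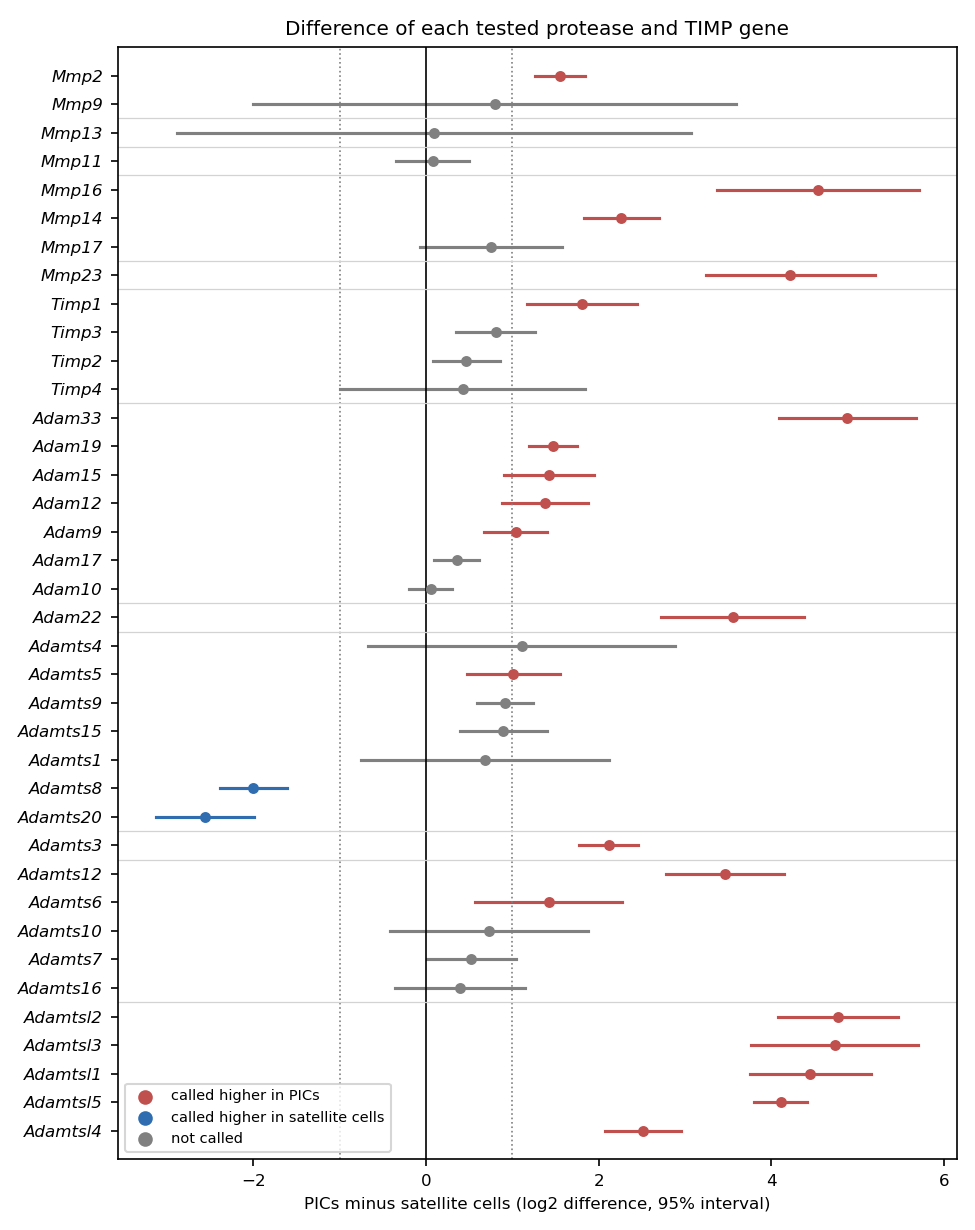
Fitted log2 difference, PICs minus satellite cells, of each tested gene with its 95% interval, grouped by role (grey lines part the groups); red marks genes called higher in PICs, blue higher in satellite cells and grey not called, and dotted lines stand at a 2-fold difference. The 5 ADAMTS-like genes all lie to the right of 2, and the intervals of Mmp9, Mmp13, Adamts1 and Adamts4 are wide.

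Of the 9 ADAM proteases of somatic tissues, 5 were called higher in PICs, 2 were not called and 2 did not pass the filter. Adam33, a metalloprotease of mesenchymal cells, read 448, 417 and 315 in PICs and 16, 8 and 18 in satellite cells. On the satellite arrays it was above an intensity of 16 in replicate 3 alone, so the fitted difference of 4.88 (95% interval 4.09 to 5.67; limma, adjusted p = 9.78e-05) is uncertain in size. A second Adam33 probe set read 371, 435 and 388 against 10, 6 and 24. The meltrins, a group of ADAMs first found in muscle cells, comprise Adam9, Adam12 and Adam19. Adam12, known in fusing and regenerating muscle, read 228, 385 and 346 in PICs and 125, 121 and 114 in satellite cells, a log2 difference of 1.38 (adjusted p = 0.00167 by limma). Adam19 read 2202, 2379 and 2012 against 756, 774 and 842, and differed by 1.47 (adjusted p = 0.000151 by limma). Adam9 read 5450, 5520 and 6493 against 2541, 2647 and 3347, and its difference of 1.04 (adjusted p = 0.00143 by limma) lay just past the threshold. All 3 meltrin genes were thus higher in PICs on every array, while Adam9 fell under the 2-fold threshold without PICs replicate 3 (0.96) or without satellite replicate 1 (0.96) or 2 (0.99).

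Adam15, which carries an integrin-binding motif, was higher in PICs by 1.43 on the probe set used, of the _x_at kind that may bind transcripts of other genes, and by 2.46 on another (limma, adjusted p = 0.00172 for the first). The main sheddases Adam10 and Adam17, which release Notch and EGF receptor ligands among others, were measured in both populations and differed little. Adam10 read 5065, 4799 and 4503 in PICs and 4679, 4500 and 4603 in satellite cells, with overlap. The log2 difference of Adam10 was 0.06 (95% interval -0.19 to 0.31), and a second probe set gave -0.07. Adam17 read 1962, 1996 and 2043 against 1430, 1631 and 1641, a difference of 0.35 (95% interval 0.09 to 0.62; limma, adjusted p = 0.0307) without overlap but under the 2-fold threshold. On the other kept Adam17 probe sets the differences were 0.055 and 0.22. Neither was called, and on neither were the arrays of the populations fully parted.

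Adam22 has no active site and serves as a receptor for secreted LGI proteins at synapses and on nerves. It read 217, 226 and 261 in PICs and 18, 13 and 34 in satellite cells, where 1 array was under the low value level. The fitted difference was 3.55 (95% interval 2.73 to 4.37; limma, adjusted p = 0.000278). Of the related genes, Adam11 lay at 6 or 7 on every array, and Adam23 read 16, 26 and 19 in PICs and 7, 7 and 6 in satellite cells and did not pass the filter. The LGI ligand genes Lgi2 and Lgi4 were also higher in PICs: Lgi2 read 2867, 2675 and 2386 against 130, 86 and 196, and Lgi4 read 208, 211 and 187 against 36, 23 and 24. The differences were 4.34 for Lgi2 and 2.90 for Lgi4 (limma, adjusted p = 9.93e-05 and 9.74e-05), while Lgi3 was not called (0.55, adjusted p = 0.122).

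ADAMTS proteoglycanase genes went both ways: of 7 tested, Adamts5 was called higher in PICs, Adamts8 and Adamts20 higher in satellite cells, and Adamts1, Adamts4, Adamts9 and Adamts15 were not called. Adamts20, a relative of Adamts9 that cleaves versican, read 147, 106 and 182 in PICs and 735, 765 and 1031 in satellite cells. The log2 difference was -2.56 (95% interval -3.13 to -1.99; limma, adjusted p = 0.000245), a 5.89-fold higher level in satellite cells. Adamts8 read 199, 151 and 175 against 746, 757 and 592, and its difference was -2.00 (95% interval -2.38 to -1.61; limma, adjusted p = 0.000159). Both genes were above the low value level on all 6 arrays, both rested on a single kept probe set, and both kept their call under each of the 19 alternatives run.

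Adamts5, an aggrecanase that also clears versican around muscle cells, read 1761, 1724 and 1063 in PICs and 831, 691 and 685 in satellite cells. The arrays did not overlap, and the log2 difference of 1.01 (95% interval 0.48 to 1.55; limma, adjusted p = 0.00852) was at the threshold. It fell under that threshold without PICs replicate 1 (0.89) or 2 (0.90), without satellite replicate 2 (0.97) or 3 (0.96), without both arrays numbered 1 (0.98), and on the log2(value + 16) scale (0.9968). Among its 3 probe sets the differences were 0.87, 1.01 and 1.57, of which the last 2 were called. Adamts9 and Adamts15, both versican-cleaving enzymes, were not called. Adamts9 read 1032, 1134 and 1202 against 545, 561 and 681 (0.92, adjusted p = 0.00146 by limma) and was called at 1.02 without satellite replicate 3. A second Adamts9 probe set read 113, 78 and 116 in PICs and 63, 83 and 163 in satellite cells, with overlap and a difference of 0.09. With the mean of its kept probe sets Adamts9 differed by 0.50 (adjusted p = 0.114 by limma). Adamts15 read 352, 309 and 220 against 145, 140 and 183 (0.90, adjusted p = 0.0109 by limma). It was called without PICs replicate 3 (1.09), without satellite replicate 3 (1.02), without both arrays numbered 3 (1.21) and with array weights (1.0983).

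Adamts1 and Adamts4, proteoglycanases known to be induced quickly by inflammatory signals, varied with the replicate number in both populations. Adamts1 read 2181, 3455 and 8552 in PIC replicates 1, 2 and 3 and 1403, 2589 and 4293 in satellite replicates 1, 2 and 3. Adamts4 read 356, 630 and 1257 against 123, 300 and 763 in the same order. At each number the PIC array was above the satellite array, but the populations overlapped as a whole. The differences were 0.68 for Adamts1 (95% interval -0.75 to 2.12; limma, adjusted p = 0.367) and 1.11 for Adamts4 (95% interval -0.67 to 2.88; limma, adjusted p = 0.243). With the replicate number as a block, Adamts4 was called higher in PICs (adjusted p = 0.00585 by limma), as it was with array weights (adjusted p = 0.0326), and Adamts1 had an adjusted p of 0.0134 but stayed under the 2-fold threshold.

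The 8 genes of a cell handling list, among them Fos, Jun, Egr1 and Il6, had a summed intensity of 59429, 84939 and 127743 in PIC replicates 1, 2 and 3 and of 68290, 94628 and 113651 in satellite replicates 1, 2 and 3. By limma 0 of the 8 were called. Il6, at 120, 1430 and 8196 in PICs and 81, 287 and 1028 in satellite cells, was called higher in PICs with the replicate block (adjusted p = 0.0219). The arrays with the highest Adamts1 and Adamts4 were thus also those with the highest sums of this list, and its part in their values was not tested. The myeloid list likewise moved with the replicate number, at 11950, 909 and 144 in PICs and 15628, 583 and 165 in satellite cells. Of its 10 genes on the array 6 passed the filter and 0 were called, S100a8 lay at 7062 and 8291 in replicate 1 of PICs and of satellite cells, and Ptprc, Itgam, Cd14 and Tyrobp were below the filter. Mmp8, the neutrophil collagenase, read 35, 5 and 5 in PICs and 67, 5 and 5 in satellite cells, and Adam8, an ADAM of leukocytes, read 22, 6 and 6 against 34, 6 and 6. Both were above the low value level in replicate 1 alone, where the myeloid sum was highest and where Mmp9 was highest in each population. The part of myeloid RNA in Mmp8, Adam8 and Mmp9 was not tested.

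**Figure D3:**
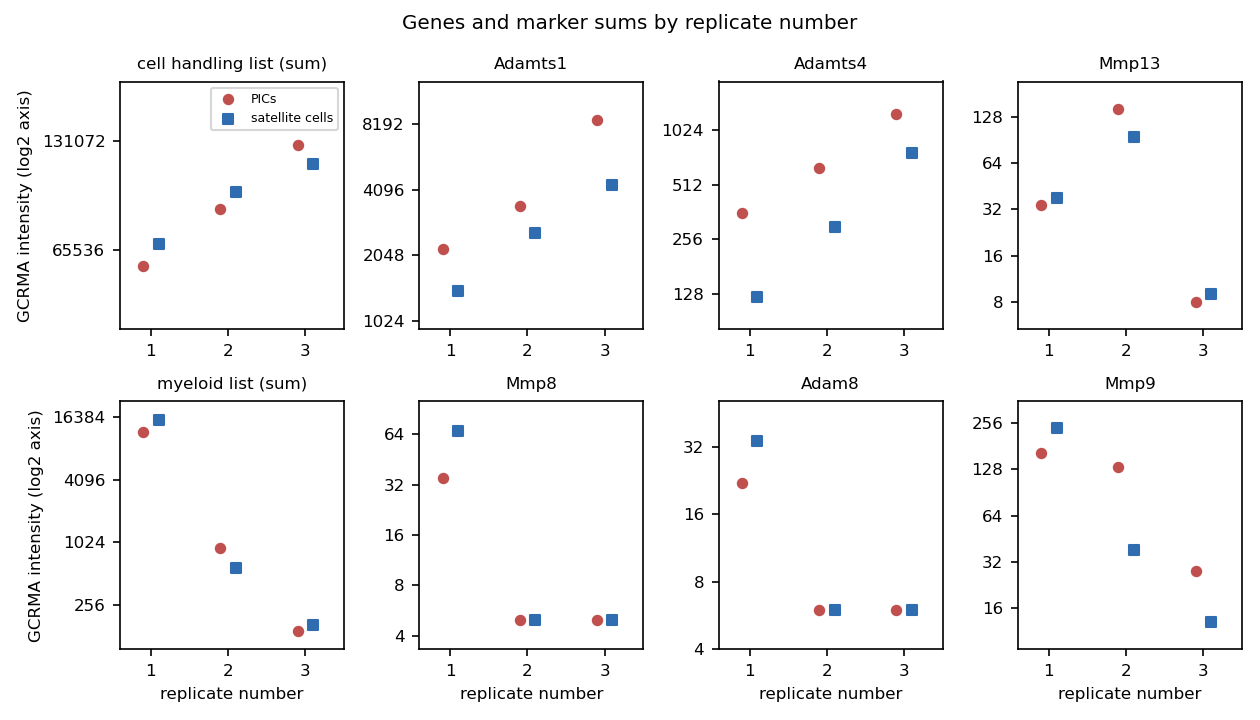
GCRMA intensity on a log2 axis against replicate number, PICs as red circles and satellite cells as blue squares (1 array each, set slightly apart), for the summed cell handling list, Adamts1, Adamts4 and Mmp13 (top) and the summed myeloid list, Mmp8, Adam8 and Mmp9 (bottom). Within each panel both populations have the same order of replicate numbers, apart from ties, and Mmp8 and Adam8 lie at 5 and 6 in replicates 2 and 3 of both populations.

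The remaining ADAMTS genes called were all higher in PICs. Adamts12, an enzyme known to cleave the cartilage protein COMP, read 2270, 2492 and 2473 in PICs and 187, 161 and 346 in satellite cells, a difference of 3.46 (95% interval 2.78 to 4.15; limma, adjusted p = 0.000171). Adamts3, a procollagen N-proteinase that also takes part in the activation of the lymphatic growth factor VEGF-C, read 66, 58 and 71 in PICs. Its satellite arrays read 16, 13 and 16, none above 16, so it was at least 4.05-fold higher in PICs (limma, adjusted p = 9.64e-05). Adamts6, an enzyme that acts on fibrillin-associated matrix, read 50, 55 and 89 against 15, 25 and 34, and its difference was 1.42 (adjusted p = 0.0139 by limma). That call was lost when no low values were filtered out (limma, adjusted p = 0.0706) and at 0.98 on the log2(value + 16) scale. Adamts7, Adamts10 and Adamts16 were not called, at 0.52, 0.73 and 0.39. Adamts10 read 1378, 1318 and 414 in PICs and 631, 595 and 439 in satellite cells, and it was called at 1.30 without PICs replicate 3 (adjusted p = 0.00297 by limma), at 1.14 without both arrays numbered 3 and at 1.12 with array weights. Its second probe set differed by 0.40 and was not called. PICs replicate 3 was the lowest PIC array for Adamts10, Adamts15, Mmp17, Timp2 and Timp3. This was not particular to them. That array was also the lowest PIC array for the called genes Mmp14, Mmp23, Adamts5, Adam33, Adamtsl1 and Adam19. The same held for Adamts7, Adam10, Mmp11, Mmp9, Mmp13 and Timp4, which were not called. How often it was lowest over all genes was not counted. PICs replicate 3 also had the lowest PIC sums of the endothelial list (4636, 3328 and 1243 in PICs, 3187, 2382 and 2109 in satellite cells) and of the Schwann cell list (12366, 5127 and 1694 against 10247, 3608 and 4570). The same held for the smooth muscle and pericyte list (13222, 10317 and 5411 against 10307, 6167 and 8631) and for the tendon list (2503, 3001 and 1194 against 3604, 2927 and 4824). Single genes made up most of the Schwann and tendon sums. In PICs these were Mbp (12073, 4908 and 1503) and Tnmd (2465, 2964 and 1168). Of the other Schwann genes tested, Sox10 fell in PICs (146, 78 and 43) and S100b did not (147, 141 and 148). The part of those cells in the values of the protease genes was not tested.

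All 5 ADAMTS-like genes were called higher in PICs. Adamtsl2, whose protein binds fibrillin and latent TGF-beta binding protein, read 244, 275 and 391 in PICs and 9, 9 and 16 in satellite cells, at least 18.6-fold higher in PICs (limma, adjusted p = 7.71e-05). Adamtsl5, another microfibril-binding member, read 132, 142 and 138 against 8, 9 and 7, at least 8.58-fold higher (limma, adjusted p = 1.44e-05). The satellite arrays of these genes held no value above the low value level. Adamtsl3 was measured in both populations, at 1741, 1868 and 2118 in PICs and 75, 39 and 125 in satellite cells, a difference of 4.73 (95% interval 3.77 to 5.70; limma, adjusted p = 0.000187). Adamtsl1, also named punctin, read 650, 579 and 543 against 31, 17 and 37, a difference of 4.45 (limma, adjusted p = 9.3e-05), and its 3 probe sets differed by 3.86 to 4.81. Adamtsl4, a fibrillin-1 partner known from lens suspension, read 426, 528 and 564 against 101, 71 and 95, a difference of 2.51 (limma, adjusted p = 0.000122). In these 5 genes no satellite array came near a PIC array, and each kept its call under the 19 alternatives run.

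The promoters of 4 ADAMTS-like genes are shown because these genes moved together, and that of Adamts20 because it went the other way. They are from RefSeq (GRCm38.p6) with the window and capitals given for Mmp14: Adamtsl2 at chr2:27079129-27079428 on the plus strand, Adamtsl3 at chr7:82335444-82335743 on the plus strand, Adamtsl4 at chr3:95687868-95688167 on the minus strand, Adamtsl5 at chr10:80348399-80348698 on the minus strand and Adamts20 at chr15:94404301-94404600 on the minus strand. Each is written 5′ to 3′ on the strand of the gene.
Adamtsl2: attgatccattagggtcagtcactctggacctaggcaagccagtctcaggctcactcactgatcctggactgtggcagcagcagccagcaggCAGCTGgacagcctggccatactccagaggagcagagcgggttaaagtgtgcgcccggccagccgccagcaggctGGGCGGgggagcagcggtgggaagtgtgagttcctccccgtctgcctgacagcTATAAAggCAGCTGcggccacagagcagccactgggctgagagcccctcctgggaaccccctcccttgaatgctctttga
Adamtsl3: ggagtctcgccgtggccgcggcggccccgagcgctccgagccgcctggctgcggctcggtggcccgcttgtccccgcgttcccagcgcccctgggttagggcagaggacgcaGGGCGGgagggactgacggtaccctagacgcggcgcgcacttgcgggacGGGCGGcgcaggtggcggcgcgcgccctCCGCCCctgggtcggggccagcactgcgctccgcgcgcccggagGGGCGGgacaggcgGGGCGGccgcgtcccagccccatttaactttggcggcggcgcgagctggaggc
Adamtsl4: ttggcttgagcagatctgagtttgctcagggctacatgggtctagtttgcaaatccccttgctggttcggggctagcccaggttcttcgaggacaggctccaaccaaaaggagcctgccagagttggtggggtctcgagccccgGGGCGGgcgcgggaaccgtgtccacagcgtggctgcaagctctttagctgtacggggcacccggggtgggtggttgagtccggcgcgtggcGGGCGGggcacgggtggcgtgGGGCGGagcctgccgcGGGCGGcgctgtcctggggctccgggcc
Adamtsl5: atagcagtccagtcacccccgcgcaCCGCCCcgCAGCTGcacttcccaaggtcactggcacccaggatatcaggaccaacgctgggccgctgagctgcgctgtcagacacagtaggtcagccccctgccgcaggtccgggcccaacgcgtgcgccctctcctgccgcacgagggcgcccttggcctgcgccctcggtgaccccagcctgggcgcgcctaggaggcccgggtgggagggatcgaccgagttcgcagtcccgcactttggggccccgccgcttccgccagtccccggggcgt
Adamts20: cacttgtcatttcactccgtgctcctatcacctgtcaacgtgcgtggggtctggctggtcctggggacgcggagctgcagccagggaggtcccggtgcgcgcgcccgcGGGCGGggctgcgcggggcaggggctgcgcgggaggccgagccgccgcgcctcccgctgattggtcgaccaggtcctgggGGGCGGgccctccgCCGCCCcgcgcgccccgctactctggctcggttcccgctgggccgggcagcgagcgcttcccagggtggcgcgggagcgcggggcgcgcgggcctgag
GGGCGG was found in each of these 5 windows, 5 times in Adamtsl3, 4 times in Adamtsl4, 3 times in Adamts20 and once in Adamtsl2 and in Adamtsl5. The letters TATAAA stood 30 bases before the start of Adamtsl2 and in no other of the 5, and CAGCTG was in Adamtsl2 and Adamtsl5. No match to TGANTCA was found in them. The windows of the genes higher in PICs and that of Adamts20 thus shared GC boxes.

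**Figure D4:**
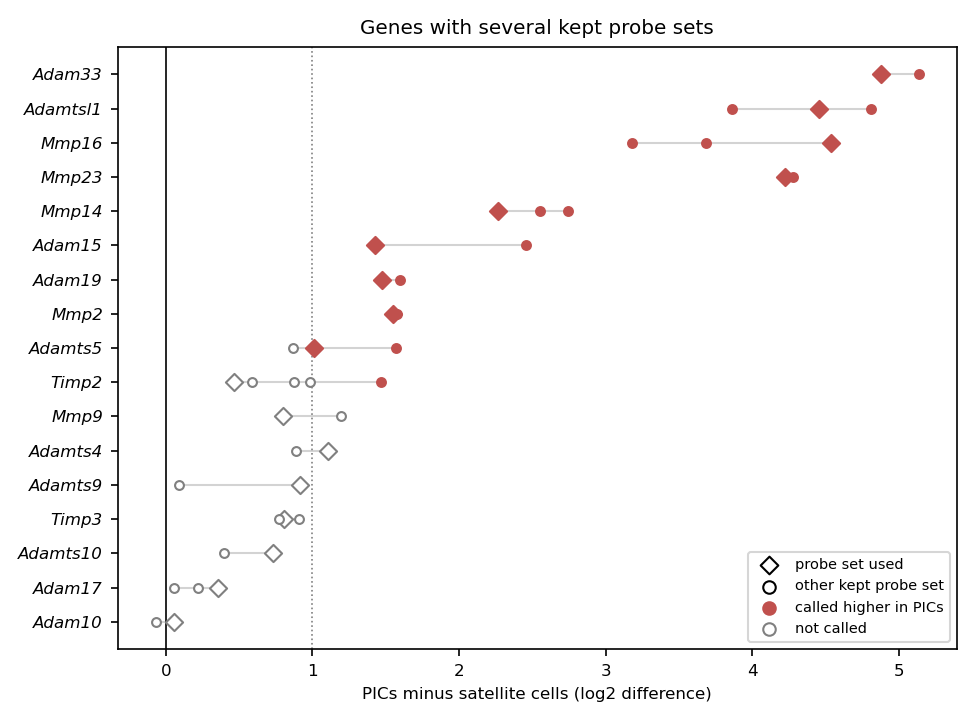
Log2 difference, PICs minus satellite cells, of every kept probe set of the 17 genes with more than 1; diamonds mark the probe set used and circles the others, filled red where called higher in PICs in a fit over all kept probe sets and open where not called, with a dotted line at a 2-fold difference. The probe sets of Mmp16, at 3.18 to 4.54, lie farthest apart, and those of Mmp2, at 1.55 and 1.58, closest together.

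Of the 17 genes with several kept probe sets, 8 had every probe set called higher in PICs, 7 had none called, and Adamts5 and Timp2 had some called and some not. No gene had probe sets called in opposite directions, and Adam10 was the 1 gene with differences of both signs.

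Members under the low value level were 32, and 28 of them had no array above an intensity of 16, with values of 4 to 14. All 16 ADAM genes known from testis and epididymis were among them, at 4 to 10 on every array. So were the genes for matrilysin (Mmp7), stromelysin-2 (Mmp10), macrophage elastase (Mmp12), enamelysin (Mmp20) and the interstitial collagenases Mmp1a and Mmp1b, together with Mmp19, Mmp24, Adam11, Adam28, Adamts18 and Adamts19. GCRMA draws unexpressed probe sets to a floor, so these values give no order. The 4 with some array above 16 were Mmp8, Adam8, Adam23 and Mmp3. Mmp3, or stromelysin-1, read 24, 28 and 16 in PICs and 11, 10 and 10 in satellite cells. In a fit without the filter, Mmp3 and Adam23 were called higher in PICs, at 1.10 and 1.58 (limma, adjusted p = 0.03 and 0.00751). The satellite arrays of both genes held no value above 16. The sizes of these differences thus rest on values under the low value level, and a 2-fold difference cannot be read from them.

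Genes that act with these proteases were taken from a list of 47 activators, inhibitors, cofactors and matrix partners, of which 31 were tested. In all, 15 were called with PICs above, 6 with satellite cells above, and 10 were not called, against backgrounds of 16.7% and 13%. Their median log2 difference was 0.80, beside -0.04 over all genes tested. Reck, a membrane-anchored inhibitor of MMPs, read 8129, 8624 and 9348 in PICs and 1119, 752 and 1430 in satellite cells, a difference of 3.03 (limma, adjusted p = 0.00015). Tfpi2, a secreted inhibitor of plasmin and other serine proteases, differed by 3.51, and the plasminogen activator gene Plat by 3.40 (limma, adjusted p = 0.000688 and 0.000286). The proprotein convertase genes Pcsk5 and Pcsk6, whose products remove propeptides, differed by 2.31 and 2.94. Furin, the convertase that activates membrane-type MMPs and ADAMs, was not called, at 0.73 (95% interval 0.23 to 1.235; limma, adjusted p = 0.0232).

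In collagen maturation, the procollagen C-proteinase gene Bmp1 (1.24) and its enhancer Pcolce (2.66) were higher in PICs, and Tll1, a relative of Bmp1, was at least 3.48-fold higher in PICs. Pcolce2, also on the list, went the other way and was not called (-1.15, adjusted p = 0.334 by limma). It read 158, 94 and 13 in PICs and 209, 133 and 76 in satellite cells. Vcan, which encodes the ADAMTS substrate versican, read 11159, 12880 and 11751 in PICs and 1432, 1694 and 2846 in satellite cells, a difference of 2.64 (limma, adjusted p = 0.000294). Acan, the aggrecan gene, was not called at -1.44 (adjusted p = 0.195 by limma) and was called higher in satellite cells with the replicate block (adjusted p = 0.0414). Fbn2, a microfibril gene, differed by 3.04, and the clearance receptor gene Lrp1, which takes up several of these enzymes, by 2.61.

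Partners of ADAM10 and ADAM17 were among the genes higher in satellite cells. The TspanC8 tetraspanins direct ADAM10 to its sites, and of these Tspan15 (-2.68), Tspan17 (-1.64) and Tspan33 (-1.50) were higher in satellite cells, while Tspan5 (0.00) and Tspan14 (-0.31) were not called. Tspan15 read 18, 19 and 18 in PICs and 111, 116 and 126 in satellite cells (limma, adjusted p = 3.32e-05). Tspan33 was not called without both arrays numbered 3 (adjusted p = 0.0609 by limma). Of the iRhoms, which bring ADAM17 to the cell surface, Rhbdf2 was higher in satellite cells (-2.31) and Rhbdf1 higher in PICs (1.14). The Rhbdf1 call was lost with no low values filtered out (limma, adjusted p = 0.0559) and without both arrays numbered 1 (limma, adjusted p = 0.0775), and it fell just under the 2-fold threshold without satellite replicate 1 (0.99) or 2 (0.9975). Thsd4, whose product is also known as ADAMTSL6, read 53, 55 and 61 in PICs and 447, 666 and 723 in satellite cells, a difference of -3.41 (limma, adjusted p = 7.56e-05), opposite in sign to the 5 genes with an Adamtsl symbol. Sdc4, a heparan sulfate proteoglycan of satellite cells, differed by -2.19.

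**Figure D5:**
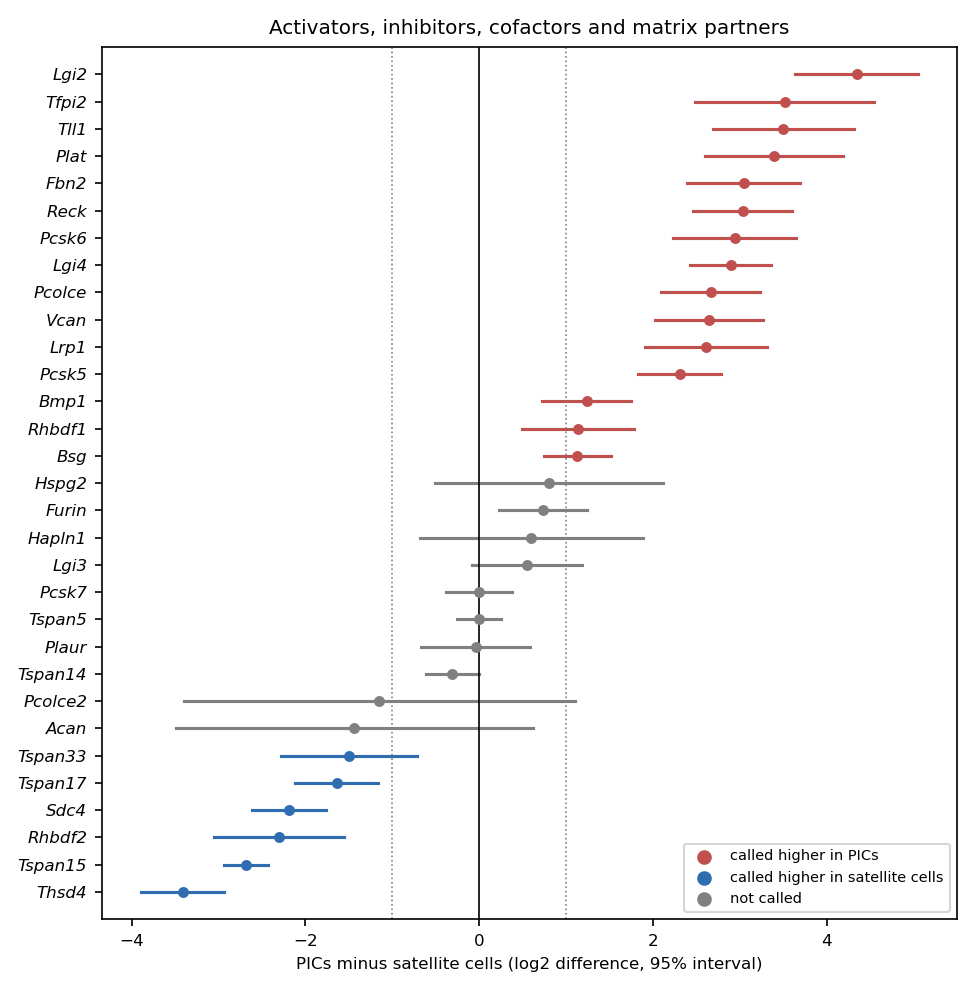
Fitted log2 difference, PICs minus satellite cells, with its 95% interval for the 31 tested partner genes in order of size; red marks genes called higher in PICs, blue higher in satellite cells and grey not called, with dotted lines at a 2-fold difference. Lgi2 lies highest at 4.34 and Thsd4 lowest at -3.41.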

How the data were processed

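Total RNA was made into biotinylated cRNA and hybridised to 1-colour Affymetrix arrays, per the labels' protocols. The table deposited by the authors gives the linear intensity of 45037 probe sets as whole numbers; per the submitters' processing notes the authors used GCRMA (version not given in the sources used here). Rounding and the GCRMA floor narrow the spread of low values. Probe sets were named by GEO's platform annotation (34945 with 1 symbol, updated by gene number), and of a gene's kept probe sets the one of highest mean log2 intensity stood for it. The difference was tested with limma 3.58.1 in R 4.3.3 (lmFit and eBayes, two-sided) over 10855 genes with Benjamini-Hochberg adjustment. Where all arrays of a population were at or under 4, the fold is a lower bound, the other mean minus 4, and is written as "at least". The fit was tested on simulated data with independent normal noise. Those data held no replicate effect, rounding or floor, so the test does not cover these features of the arrays.

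The members and lists were chosen with earlier results of these data known. The naming rule allowed every member, marker genes as checks, and up to 6 called partner genes of largest difference per direction. Lgi3, Lgi4, Pcsk5, Pcsk6, Furin, Bmp1, Pcolce, Pcolce2, Vcan, Acan, Lrp1, Tspan5, Tspan14 and Rhbdf1 fall outside that rule and were picked once their values had been seen. The labels do not tie biological replicates to separate animals, so p-values measure the spread between these arrays, and 3 arrays per population limit the precision. Deviations from the population mean over all genes tested correlated at 0.623, 0.222 and 0.579 between arrays of equal replicate number and at -0.568 to 0.0363 otherwise. The numbers were therefore taken to pair the arrays in 1 alternative, the replicate block, a pairing read from the data. The main fit did not use that pairing. Intervals and adjusted p-values are from the main fit unless another setting is named, so they include spread between replicate numbers. Scan dates were not used here.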

Additional observations from a re-analysis of the deposited data

How the results depend on the processing

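Each count was recomputed under 17 other settings and, for the protease and partner counts, 2 more chosen after seeing the data (without both arrays numbered 1 or 3). Genes of the protease and TIMP list called higher in PICs were 18 to 22 with 1 array left out, 21 with the replicate block, 18 with the stricter filter or on the log2(value + 16) scale, 24 with array weights and 25 with no minimum difference; the block changed no other call in the list than that of Adamts4. Adamts8 and Adamts20 were the 2 called higher in satellite cells in every alternative. With no minimum difference, 2998 of all genes were called with PICs above and 3108 with satellite cells above, against 1815 and 1415. Of the 22 called genes 19 kept their call wherever they were tested; Adamts3 and Adamts6 were not tested under the stricter filter. Leaving out 1 array at a time moved genes that were not called across 0: Mmp13 ranged from -0.95 to 1.14, Mmp9 from -0.16 to 1.93, Mmp11 from -0.071 to 0.18 and Timp4 from -0.16 to 0.95, while Adam10 was at -0.0051 with the mean of its probe sets. The cause was not tested. Signal near the low value level limits Adamts3, Adamtsl2, Adamtsl5, Adam33, Adam22 and Adamts6. It also limits the size of the Adamtsl1 and Mmp16 differences, whose lowest satellite values were 17 and 18. Other kept probe sets of these genes had satellite values under 16.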

Other observations

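Several genes of the list are neighbours among the protein-coding genes of the RefSeq table (GRCm38.p6, used for gene order only). Adamts15 and Adamts8 stand next to each other with 0 genes between them and had differences of opposite sign, 0.90 and -2.00 on the log2 scale. Adamts1 and Adamts5, also with 0 genes between them, had differences of 0.68 and 1.01. Mmp13, Mmp12, Mmp1b, Mmp3, Mmp1a, Mmp10, Mmp8, Mmp20 and Mmp7 follow one another with at most 1 gene between neighbours, and of these Mmp13 alone passed the filter on low values. Adam9, measured at 2541 or more on every array, stands next to Adam32, Adam5, Adam3 and Adam18, which lay at 10 or less on every array.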
